A study of Homo sapiens with 6 samples.

Results

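The 36 genes described here encode the glucose transporters, the enzymes of glycolysis and their regulators, the lactate exporters, the enzymes of glycogen turnover and the opposing sugar phosphatases. They were chosen by pathway role, with earlier results of these data known, as rows of the count tables that carry their symbols. They are 36 of 28265 gene rows. All 36 passed the filter on low counts and are among 13949 tested genes. The tested cells were MDA-MB-231GlnIND (GlnIND), a derivative of the established human triple-negative breast cancer line MDA-MB-231 that had been kept without glutamine for more than 6 weeks, in RPMI 1640 with 10% dialysed fetal bovine serum. The parental MDA-MB-231 cells were kept in glutamine-replete RPMI 1640 with 10% fetal bovine serum. Each group had 3 libraries of polyA RNA. Glutamine supply, type of serum and cell population differed together between the groups and cannot be told apart. The labels state neither whether the GlnIND line is 1 clone nor whether each library had a culture of its own. The p-values therefore rest on the variation among these 6 libraries, part or all of which may be technical. In bulk RNA, fewer cells of a kind and less RNA per cell cannot be told apart.

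Glycolysis splits glucose into pyruvate in the cytosol. Phosphofructokinase is its main control point and is switched on by fructose-2,6-bisphosphate. Lactate dehydrogenase then turns pyruvate into lactate, which leaves the cell through monocarboxylate transporters that need the chaperone basigin. Many tumour cells run this route fast even with oxygen present, and several of its genes are textbook targets of the hypoxia-inducible factor HIF-1 and of MYC. Glycogen is the stored form of glucose, built by glycogen synthase and branching enzyme and broken down by glycogen phosphorylase.

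Total counts were 21276815 to 24594248 in GlnIND and 18256219 to 21741371 in parental libraries. Values below are read counts scaled to library size (CPM) with TMM normalisation, which corrects for composition. Of genes known to be expressed in MDA-MB-231, VIM stood at 6077 and 3979 CPM and CD44 at 785 and 969 CPM in GlnIND and parental cells. Of 7 hormone receptor and luminal genes, ESR1 and PGR were at most at 0.307 CPM, GATA3 was not called, FOXA1, KRT8 and KRT18 were lower, and ERBB2, the other receptor of the triple-negative definition, was higher at 63.7 CPM in GlnIND cells, against 36.1 CPM in parental cells. KRT18 stood at 104 CPM in GlnIND and 284 CPM in parental cells. Of 8 markers of other cell types, PTPRC, CD3E, VWF and DCN were at most at 0.248 CPM, and CD68 and ACTA2 were not called, with CD68 at 177 and 178 CPM in GlnIND and parental cells. PECAM1 was higher at 4.34 CPM in GlnIND cells, against 2.41 CPM in parental cells, and PDGFRB at 3.08 against 1.07 CPM. The summed level of these 8 genes was 184 to 186 CPM in GlnIND and 163 to 206 CPM in parental libraries, and the part of such differences in the results was not tested. Parental library 1 stood apart. Its chi-square per gene against the other parental libraries was 23.7 and 33.0, while the other 4 pairs of replicates gave 3.42 to 4.12. Among the 36 genes it was the lowest parental library at 22 and the highest at 7. The median log2 ratio of parental 1 to the mean of parental 2 and 3 was -0.16 over the 36 genes, beside 0.0 over all tested genes. Results are therefore given with and without parental 1. Fits without it rest on parental 2 and 3 alone. Their p-values leave out the spread that parental 1 adds and are not comparable with those from all libraries.

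GAPDH, PGK1, PGAM1 and ENO1 of lower glycolysis and both lactate dehydrogenase genes were lower in GlnIND cells. PKM and the genes of glucose uptake and the first steps did not pass the test, and those of glycogen turnover went both ways. By the quasi-likelihood test of edgeR, with p-values adjusted over all genes by Benjamini-Hochberg, 7 of the 36 genes (19.4%) were higher and 16 (44.4%) lower at an adjusted p under 0.05, and 13 were not called. Over all tested genes 28.4% were higher and 27.9% lower, 56.3% in all. All GlnIND libraries lay above all parental libraries at 7 of the 36 genes (33.7% of all genes) and below them at 15 (31.3% of all genes). The median log2 fold change of the 36 genes was -0.18, beside 0.03 over all tested genes. Without parental 1, 8 genes were higher and 22 lower, with 32.3% and 32.9% of all genes, and the median was -0.24. The split rested in part on scaling. With library totals alone 12 of the 36 genes were higher and 11 lower with a median of -0.03, while 38.4% of all genes were higher and 20.1% lower and their median moved to 0.18. Under each of 15 alternative settings 12 genes kept both their direction and their call. Of these, TPI1, GAPDH, PGK1, PGAM1, LDHA, LDHB, BSG, PGM2, PFKFB3 and TIGAR were lower and PFKFB2 and ENO3 higher. The share of all genes that did the same is not given here, so this split cannot be set against a background.

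The summed signal of the 36 genes was 1.43%, 1.47% and 1.41% of all counts in GlnIND libraries 1 to 3, against 1.56%, 1.79% and 1.80% in parental libraries 1 to 3. This share does not use the composition factors, and every GlnIND library lay below every parental library. The sum gives most weight to abundant rows and does not show a fall of the whole set. Under scaling by totals 12 of the 36 genes were called higher and 11 lower (38.4% and 20.1% of all genes). GAPDH, PKM, ENO1 and LDHA were the most abundant rows of the set.

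**Figure D1:**
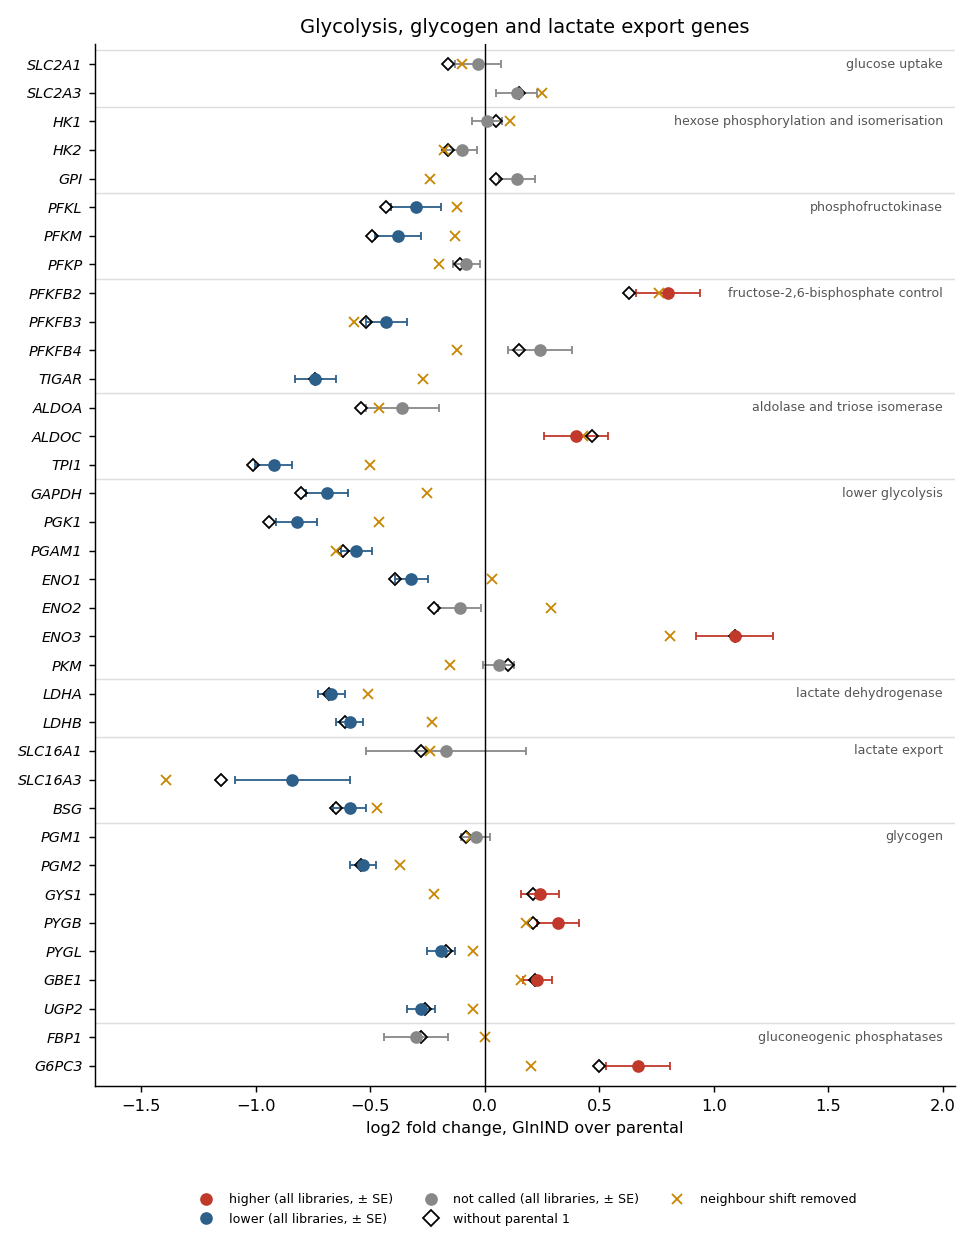
Log2 fold change (GlnIND over parental) of each of the 36 genes by role, with filled points and SE bars for all 6 libraries, open diamonds without parental 1 and crosses after subtraction of the median change of neighbouring genes. TPI1 at -0.92 is the lowest and ENO3 at 1.09 the highest filled point, and SLC16A3 lies at -1.15 without parental 1 and at -1.39 after the subtraction.

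None of the genes of glucose uptake and its first conversions passed the test with all libraries, though each of the 5 did under at least 1 alternative setting named here. SLC2A1, the basal glucose transporter GLUT1, had 269.7, 265 and 269 CPM in GlnIND libraries 1 to 3, against 225, 302 and 293 CPM in parental libraries 1 to 3. Parental 1 was the lowest of all 6 libraries and parental 2 and 3 were the highest. The log2 fold change was -0.03 (SE 0.1, edgeR adjusted p = 0.826), and -0.16 without parental 1 (adjusted p = 0.00169). SLC2A3, the high-affinity transporter GLUT3, had 37.4, 42.7 and 41.5 CPM in GlnIND libraries, against 37.9, 38.4 and 34.2 CPM in parental libraries, and the groups overlapped (edgeR adjusted p = 0.212). It was called higher under upper-quartile scaling (0.23, adjusted p = 0.0486), under scaling by totals (0.29, 0.0184) and with the change of neighbouring genes subtracted (0.25, 0.0397). Per kilobase of exon, SLC2A1 stood at 67.2 and 68.6 CPM in GlnIND and parental cells and SLC2A3 at 10.3 and 9.41 CPM.

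The hexokinases HK1 and HK2 phosphorylate glucose and so trap it in the cell. HK1 averaged 214 ± 3.58 CPM in GlnIND and 214 ± 13.0 CPM in parental cells (SD, n = 3 each, with edgeR adjusted p = 0.952). HK2, the isozyme often raised in tumours, averaged 219.8 ± 9.85 CPM in GlnIND and 236 ± 12.6 CPM in parental cells (SD, n = 3 each, with edgeR adjusted p = 0.209). Without parental 1 the HK2 log2 fold change was -0.16 (adjusted p = 0.00346). GPI, which converts glucose-6-phosphate to fructose-6-phosphate, had 475, 480.1 and 464 CPM in GlnIND libraries, against 380.1, 443 and 464 CPM in parental libraries (edgeR adjusted p = 0.153). GPI was called higher under upper-quartile scaling (0.23, adjusted p = 0.0345) and under scaling by totals (0.29, 0.0144), but lower with the change of neighbouring genes subtracted (-0.24, 0.0274). HK1 was called higher under scaling by totals (0.16, adjusted p = 0.0365). For HK1, HK2 and GPI the libraries of the groups overlapped.

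At the phosphofructokinase step the muscle-type and liver-type subunits fell and the most abundant subunit did not pass it with all libraries. PFKM had 77.0, 84.2 and 76.6 CPM in GlnIND libraries 1 to 3, against 87.6, 106 and 116 CPM in parental libraries 1 to 3. All GlnIND libraries lay below all parental libraries, with a fitted log2 fold change of -0.38 with SE 0.1 (edgeR adjusted p = 0.00977), a call that was lost under scaling by totals (0.0978). PFKL had 55.1, 57.3 and 55.6 CPM in GlnIND libraries, against 56.9, 76.9 and 73.2 CPM in parental libraries, and parental 1 lay among the GlnIND libraries. It fell by 0.30 in log2 units (edgeR adjusted p = 0.038), a call that was lost without any 1 of parental 2, parental 3, GlnIND 1, GlnIND 2 or GlnIND 3 (adjusted p 0.0694 to 0.114). Under upper-quartile scaling PFKL stood at -0.21 (adjusted p = 0.137) and under scaling by totals at -0.15 (0.294). PFKP, the platelet-type subunit, averaged 274 ± 2.17 CPM in GlnIND and 291 ± 13.0 CPM in parental cells (SD, n = 3 each, with edgeR adjusted p = 0.255). All GlnIND libraries lay below all parental libraries at PFKP, and it was called lower without parental 1 (-0.11, adjusted p = 0.0374), with the change of neighbouring genes subtracted (-0.20, 0.0214) and after removal of the GC trend (-0.18, 0.0282). Its level per kilobase of exon was 72.6 CPM in GlnIND cells, beside 18.9 for PFKL and 16.6 for PFKM.

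The enzymes that set the level of fructose-2,6-bisphosphate moved in opposite directions. PFKFB2, a bifunctional kinase and phosphatase known from heart, had 36.8, 37.8 and 37.8 CPM in GlnIND libraries 1 to 3, against 16.6, 22.8 and 25.1 CPM in parental libraries 1 to 3. The lowest GlnIND library lay above the highest parental library. It rose by 0.80 in log2 units (standard error 0.14, edgeR adjusted p = 0.00081), and by 0.63 without parental 1. PFKFB3, the isozyme with the highest kinase to phosphatase ratio, had 65.8, 72.8 and 71.7 CPM in GlnIND libraries 1 to 3, against 83.5, 103 and 97.0 CPM in parental libraries 1 to 3. It fell by 0.43 in log2 units (standard error 0.089, edgeR adjusted p = 0.0025), again with no overlap of the groups. PFKFB4 averaged 18.1 ± 2.48 CPM in GlnIND and 15.3 ± 2.26 CPM in parental cells (SD, n = 3 each) and was not called (edgeR adjusted p = 0.182), except under scaling by totals (0.39, 0.0446). TIGAR, a p53-induced phosphatase that removes fructose-2,6-bisphosphate, had 19.4, 21.7 and 19.8 CPM in GlnIND libraries, against 34.5, 32.7 and 34.7 CPM in parental libraries. It fell by 0.74 in log2 units (standard error 0.09, edgeR adjusted p = 9.54e-05), with each GlnIND library below each parental library.

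TPI1, which interconverts the triose phosphates made by aldolase, had the lowest log2 fold change of the 36 genes. Its values were 359.8, 364 and 334 CPM in GlnIND libraries 1 to 3, against 594, 702 and 712 CPM in parental libraries 1 to 3. No GlnIND library came near the parental range, and parental 1 was the lowest of its group. The test gave a fitted log2 fold change of -0.92 with SE 0.081 (edgeR adjusted p = 1.27e-05). ALDOC, the brain-type aldolase, had 9.24, 8.32 and 8.06 CPM in GlnIND libraries, against 7.04, 6.41 and 5.87 CPM in parental libraries. It rose by 0.40 in log2 units (edgeR adjusted p = 0.0289), but the call was lost without any 1 of parental 2, parental 3, GlnIND 1, GlnIND 2 or GlnIND 3 (adjusted p 0.0589 to 0.117), with DESeq2 (0.0729) and with the GC trend removed (0.0761). ALDOA, the main aldolase of most cells, had 313, 354 and 331 counts in GlnIND libraries, against 272, 318 and 418 in parental libraries. In RefSeq (GRCh38.p14) the locus LOC112694756 overlaps nearly the whole gene, and its row held 81, 79 and 70 counts in GlnIND and 54, 79 and 87 in parental libraries. How reads in both loci were counted is not given, so the ALDOA row (edgeR adjusted p = 0.0851) does not give the level of aldolase A. Its log2 fold change was -0.36, and -0.54 without parental 1 (adjusted p = 2.13e-05) and -0.44 after removal of the GC trend (0.0467).

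Of the enzymes from glyceraldehyde phosphate to pyruvate 4 fell, 1 rose and 2 were not called. GAPDH, which makes the first NADH of the pathway, had 2921, 2904 and 2776 CPM in GlnIND libraries 1 to 3, against 3941, 4922 and 5024 CPM in parental libraries 1 to 3. All GlnIND libraries lay below all parental libraries, at 0.619 of the parental level, with a fitted log2 fold change of -0.69 with SE 0.092 (edgeR adjusted p = 0.000173). PGK1, the first ATP-forming step, had 553, 557 and 547 CPM in GlnIND libraries 1 to 3, against 832, 1034 and 1064 CPM in parental libraries 1 to 3. The parental libraries spread more widely than the GlnIND libraries, with parental 1 lowest, and the groups did not overlap. The test gave a fitted log2 fold change of -0.82 with SE 0.09 (edgeR adjusted p = 5.29e-05). PGAM1, the phosphoglycerate mutase that follows, had 132, 127 and 132 CPM in GlnIND libraries, against 177, 200.3 and 197 CPM in parental libraries, with a fitted log2 fold change of -0.56 with SE 0.067 (edgeR adjusted p = 9.59e-05). Without parental 1 the log2 fold changes were -0.80 for GAPDH, -0.94 for PGK1 and -0.62 for PGAM1.

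**Figure D2:**
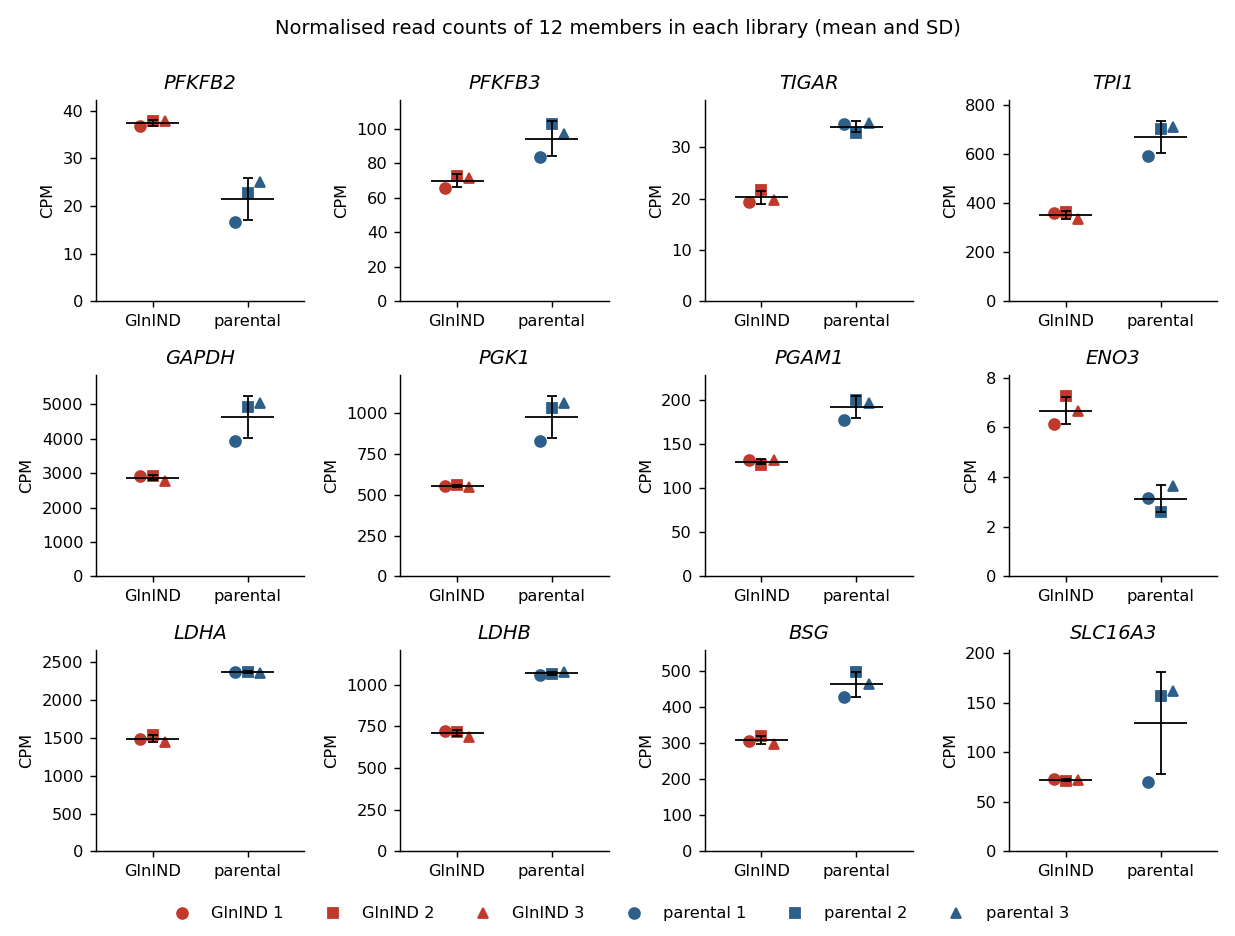
Normalised read counts (CPM) of 12 genes in each library, with GlnIND libraries left and parental libraries right, black lines for the mean and bars for the SD (n = 3). The groups are apart at 11 of these 12 genes, which were picked for display, and at SLC16A3 parental 1 lies at 69.9 CPM beside the GlnIND libraries.

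The enolases, which make phosphoenolpyruvate, split by isozyme. ENO1, the ubiquitous form, had 1986, 2050 and 1914 CPM in GlnIND libraries 1 to 3, against 2271, 2570 and 2607 CPM in parental libraries 1 to 3, and the groups did not overlap. It fell by 0.32 in log2 units (standard error 0.071, edgeR adjusted p = 0.00329), a call that was lost with library totals alone (-0.17, adjusted p = 0.0701). ENO2, the neuronal form, averaged 65.2 ± 0.451 CPM in GlnIND and 70.5 ± 8.47 CPM in parental cells (SD, n = 3 each) and was not called (edgeR adjusted p = 0.321). Without parental 1 its log2 fold change was -0.22 (adjusted p = 0.00173). ENO3, the muscle form, had 6.14, 7.24 and 6.64 CPM in GlnIND libraries, against 3.17, 2.57 and 3.64 CPM in parental libraries, and all GlnIND libraries were above all parental libraries. It had the largest rise of the set, 2.13-fold on the fitted scale, with a fitted log2 fold change of 1.09 with SE 0.17 (edgeR adjusted p = 0.000541). Its level stayed low, at 4.20 CPM per kilobase of exon in GlnIND cells, beside 825 for ENO1 and 20.6 for ENO2. PKM, the pyruvate kinase that closes the pathway, had 2186, 2311 and 2144 CPM in GlnIND libraries, against 2279, 2083 and 2008 CPM in parental libraries. The groups overlapped and it was not called (edgeR adjusted p = 0.478). Without parental 1 its log2 fold change was 0.10 (adjusted p = 0.0249), and under scaling by totals 0.21 (0.0127).

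Both lactate dehydrogenase genes fell by similar amounts. LDHA, which favours lactate formation, had 1484, 1539 and 1442 CPM in GlnIND libraries 1 to 3, against 2370, 2373 and 2358 CPM in parental libraries 1 to 3. The parental libraries lay close together and every GlnIND library lay far below them, with a fitted log2 fold change of -0.67 with SE 0.058 (edgeR adjusted p = 1.18e-05). LDHB, which favours the return of lactate to pyruvate, had 721, 718 and 687 CPM in GlnIND libraries 1 to 3, against 1061, 1064 and 1080 CPM in parental libraries 1 to 3, with a fitted log2 fold change of -0.59 with SE 0.057 (edgeR adjusted p = 2.24e-05). Parental 1 did not stand apart at either gene, and without it the log2 fold changes were -0.68 and -0.61.

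Of the lactate export genes BSG and SLC16A3 fell. BSG, the chaperone basigin that carries the transporters to the cell surface, had 306, 321 and 299 CPM in GlnIND libraries 1 to 3, against 429.8, 499 and 464 CPM in parental libraries 1 to 3. The groups did not overlap, with a fitted log2 fold change of -0.59 with SE 0.071 (edgeR adjusted p = 9.02e-05). SLC16A3 encodes MCT4, the low-affinity exporter of highly glycolytic cells, and had 73.4, 71.2 and 72.7 CPM in GlnIND libraries 1 to 3, against 69.9, 157 and 162 CPM in parental libraries 1 to 3. Parental 1 lay below all GlnIND libraries, while parental 2 and 3 were far above them. With all libraries the log2 fold change was -0.84 (SE 0.25, edgeR adjusted p = 0.0169), and without parental 1 it was -1.15 (adjusted p = 3.56e-26). The latter p-value rests in part on the closeness of parental 2 and 3 and is not comparable with the former. The call was lost when parental 2 or a single GlnIND library was left out (adjusted p 0.0542 to 0.0597). SLC16A1, which encodes MCT1, was listed at 0.807, 0.791 and 1.61 CPM in GlnIND and 1.04, 1.20 and 1.40 CPM in parental libraries. Per kilobase of exon that was 0.229 CPM in GlnIND cells, beside 14.0 for SLC16A3, and no difference between the groups was detectable at this depth (edgeR adjusted p = 0.708).

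Start-site windows are shown for LDHA, PGK1 and GAPDH, which were lower in GlnIND cells, and for G6PC3, which was higher. These windows are examples that hold letters which textbook regulators of the pathway recognise. Each runs from 250 bases before to 50 bases after a RefSeq start (GRCh38.p14), 5′ to 3′ on the gene's strand. Capitals mark ACGTG, a core of the HIF-1 response element, on either strand, and where it lies within CACGTG, the E-box of MYC and of the glucose sensor MondoA, the whole E-box.
LDHA (chr11:18394313-18394612, plus strand): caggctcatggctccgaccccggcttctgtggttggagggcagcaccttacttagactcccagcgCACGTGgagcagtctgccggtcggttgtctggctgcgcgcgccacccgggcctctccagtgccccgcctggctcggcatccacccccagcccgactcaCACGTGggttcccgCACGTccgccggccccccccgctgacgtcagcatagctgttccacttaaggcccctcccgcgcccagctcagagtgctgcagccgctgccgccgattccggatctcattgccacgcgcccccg
PGK1 (chrX:78103998-78104297, plus strand): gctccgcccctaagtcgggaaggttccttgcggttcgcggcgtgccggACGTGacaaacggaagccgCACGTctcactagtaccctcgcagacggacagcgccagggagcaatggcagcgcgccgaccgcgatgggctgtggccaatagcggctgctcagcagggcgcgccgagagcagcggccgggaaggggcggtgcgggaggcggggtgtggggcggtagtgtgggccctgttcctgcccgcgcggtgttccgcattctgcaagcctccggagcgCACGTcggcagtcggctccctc
GAPDH (chr12:6535014-6535313, plus strand): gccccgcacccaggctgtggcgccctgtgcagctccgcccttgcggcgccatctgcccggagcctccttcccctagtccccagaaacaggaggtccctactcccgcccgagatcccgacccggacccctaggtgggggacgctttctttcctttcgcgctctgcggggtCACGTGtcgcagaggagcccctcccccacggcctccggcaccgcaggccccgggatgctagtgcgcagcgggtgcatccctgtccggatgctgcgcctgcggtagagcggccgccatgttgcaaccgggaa
G6PC3 (chr17:44070423-44070722, plus strand): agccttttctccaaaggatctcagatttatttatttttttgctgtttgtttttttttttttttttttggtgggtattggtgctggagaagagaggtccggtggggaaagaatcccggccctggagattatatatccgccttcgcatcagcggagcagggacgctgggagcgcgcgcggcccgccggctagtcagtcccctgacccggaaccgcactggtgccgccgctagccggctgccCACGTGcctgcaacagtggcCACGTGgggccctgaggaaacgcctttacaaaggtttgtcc
LDHA held 3 marked runs in this window, at -185, -87 and -73 bases from the start, of which 2 were E-boxes. PGK1 held 3 runs and no E-box, GAPDH 1 run that was an E-box, and G6PC3 2 E-boxes. No window of ENO1, PGAM1, LDHB, PFKL or PYGL among the lower genes held ACGTG. The same was true of ENO3, GYS1 and PYGB among the higher genes, and of another LDHA window. RefSeq gave 65 such windows for 33 of the 36 genes, since several have alternative starts, and 26 windows (40.0%) held ACGTG, beside 21.4% of 35116 windows of all genes. CACGTG, which overlaps it, was in 11 windows (16.9%), beside 7.26% of all windows. By direction, ACGTG was in 12 of 31 windows of genes that were lower, 5 of 9 of genes that were higher and 9 of 25 of genes not called. Overlapping windows of a gene repeat the same match, as the 3 windows of G6PC3 do, and a match of letters is not evidence of binding.

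The genes of glycogen turnover moved both ways, 3 higher, 3 lower and 1 not called of 7. PGM2 is listed here by its phosphoglucomutase name, and its part in glycogen turnover was not tested. It had 129.9, 128 and 132 CPM in GlnIND libraries 1 to 3, against 188, 187 and 187 CPM in parental libraries 1 to 3. The replicates of each group lay close together and the groups far apart, with a fitted log2 fold change of -0.53 with SE 0.057 (edgeR adjusted p = 4.44e-05). UGP2, which makes the UDP-glucose that glycogen synthase uses, fell to 120.5, 119 and 118 CPM in GlnIND libraries, against 151, 139.7 and 144 CPM in parental libraries (edgeR adjusted p = 0.00298), a call that was lost under scaling by totals (0.0701) and after removal of the GC trend (0.709). GYS1, the muscle-type glycogen synthase, had 47.2, 54.2 and 52.7 CPM in GlnIND libraries, against 43.0, 42.5 and 45.5 CPM in parental libraries and rose by 0.24 in log2 units (edgeR adjusted p = 0.0334). GBE1, the branching enzyme, had 172, 176 and 162 CPM in GlnIND libraries, against 146, 140.1 and 149 CPM in parental libraries and rose by 0.23 (edgeR adjusted p = 0.0121). Neither gene's groups overlapped. PGM1, the main phosphoglucomutase, averaged 108 ± 1.50 CPM in GlnIND and 111 ± 5.38 CPM in parental cells (SD, n = 3 each, with edgeR adjusted p = 0.654). The GYS1 call was lost without parental 2, parental 3, GlnIND 2 or GlnIND 3 (adjusted p 0.0520 to 0.154), with DESeq2 (0.0621) and after removal of the GC trend (0.199), and the GBE1 call without parental 2, GlnIND 1 or GlnIND 2 (0.0593 to 0.0781).

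The glycogen phosphorylases, which release glucose-1-phosphate, changed in opposite directions. PYGB, the brain form, had 307, 318 and 322 CPM in GlnIND libraries 1 to 3, against 215, 273 and 270.4 CPM in parental libraries 1 to 3. It rose by 0.32 in log2 units (standard error 0.091, edgeR adjusted p = 0.013), and all GlnIND libraries lay above all parental libraries. PYGL, the liver form, had 162, 168 and 160.4 CPM in GlnIND libraries, against 194, 182 and 184 CPM in parental libraries, also without overlap. It fell by 0.19 (SE 0.06, edgeR adjusted p = 0.0203). The PYGB call was lost without GlnIND 2 or GlnIND 3 (adjusted p 0.0563 and 0.0605) and after removal of the GC trend (0.0651), and the PYGL call without GlnIND 1 or GlnIND 3 (0.0626 and 0.0713), under upper-quartile scaling (0.156) and under scaling by totals (0.564).

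Of the phosphatases that oppose glycolysis, G6PC3, the ubiquitous glucose-6-phosphatase of the endoplasmic reticulum, rose. It had 42.4, 43.2 and 41.6 CPM in GlnIND libraries 1 to 3, against 20.3, 29.3 and 30.3 CPM in parental libraries 1 to 3, with a fitted log2 fold change of 0.67 with SE 0.14 (edgeR adjusted p = 0.00226). Parental 1 was the lowest library, and without it the log2 fold change was 0.50. FBP1, the fructose-1,6-bisphosphatase of gluconeogenesis, had 17.7, 13.2 and 13.1 CPM in GlnIND libraries, against 19.0, 16.6 and 18.4 CPM in parental libraries. GlnIND 1 lay within the parental range and the other GlnIND libraries below it (edgeR adjusted p = 0.087). Without GlnIND 1 the FBP1 log2 fold change was -0.47 (adjusted p = 0.0171), without parental 1 it was -0.28 (adjusted p = 0.0351), and after removal of the GC trend -0.36 (0.0467).

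Ratios of paired isozymes within a library do not depend on how libraries are scaled. Differences below are of log2 ratios, GlnIND minus parental, and say nothing of absolute levels, since the genes differ in length. Of 8 pairs 4 had groups that did not overlap, and an exact two-sided permutation test of 3 against 3 libraries cannot give a p below 0.1. Groups of single genes were often apart too, with GlnIND above at 33.7% and below at 31.3% of all tested genes. No share over other gene pairs is given here. The log2 ratio of PYGL over PYGB was -0.92, -0.92 and -1.01 in GlnIND libraries, against -0.15, -0.58 and -0.56 in parental libraries, a difference of -0.52 (exact p = 0.1, 0.2 adjusted over the 8 pairs). ENO2 over ENO1 averaged -4.93 ± 0.04 in GlnIND and -5.14 ± 0.07 in parental libraries (SD, n = 3 each), a difference of 0.22 with the same exact p. ALDOC over ALDOA differed by 0.75, with the limit on the ALDOA row given above. LDHB over LDHA was -1.07 ± 0.03 in GlnIND and -1.15 ± 0.02 in parental libraries (SD, n = 3 each), a difference of 0.08. The ratios SLC2A1 over SLC2A3, HK1 over HK2, PFKL over PFKP and SLC16A1 over SLC16A3 overlapped between the groups (exact p 0.3 to 0.5).

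**Figure D3:**
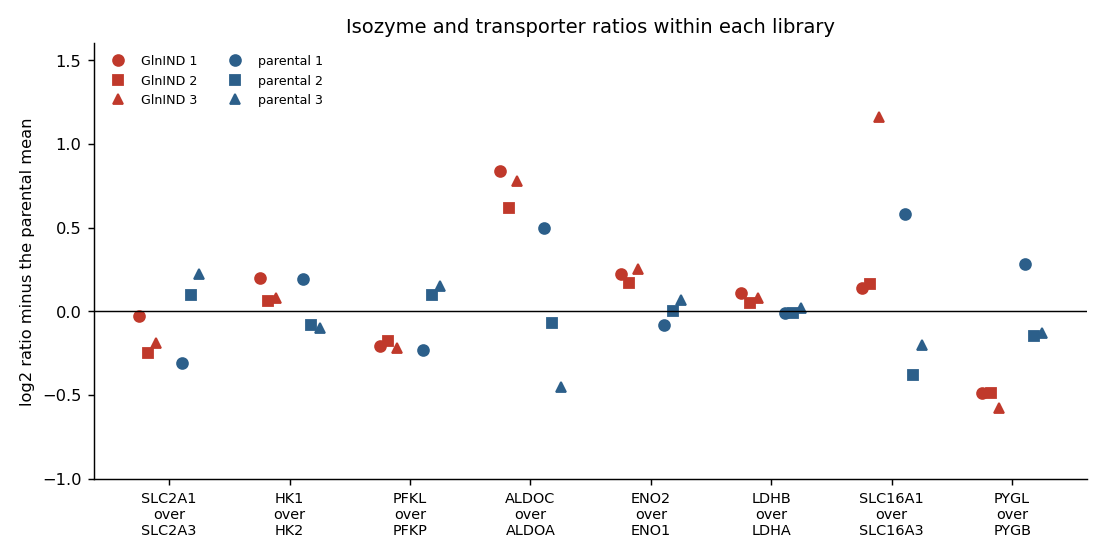
Log2 ratio of 8 pairs of isozymes or transporters in each library, minus the mean of the parental libraries, with GlnIND libraries left and parental libraries right of each pair. PYGL over PYGB is lower and ALDOC over ALDOA, ENO2 over ENO1 and LDHB over LDHA are higher in all GlnIND libraries, and the SLC16A1 pair spreads widely.

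Neighbouring genes often had changes of the same sign. For each gene the median log2 fold change of its tested neighbours, up to 20 on either side in RefSeq order (GRCh38.p14), was computed. This median was below 0 for 13 of the 16 genes that were lower and above 0 for 6 of the 7 that were higher. Over all 13776 tested genes with such a median, it was below 0 for 70.2% of the lower and above 0 for 74.3% of the higher genes. Over the 36 genes it had a Spearman rho of 0.58 and a Pearson r of 0.54 with the gene's own log2 fold change, beside a rho of 0.41 over all genes, a description over genes that share libraries and, in part, neighbours. Chromosome 12 carries 7 of the 36 genes, SLC2A3, TIGAR, GAPDH, TPI1, ENO2, LDHB and PFKM, with neighbour medians from -0.47 to -0.11, and 5 of them were lower and 0 higher. Of all 740 tested genes of this chromosome 49.5% were lower and 15.5% higher. Of the other 29 genes 11 were lower and 7 higher, beside 26.7% and 29.1% of all genes off chromosome 12. Why neighbouring genes moved together was not tested.

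With that median subtracted, 11 of the 16 lower genes remained lower and called, and 3 of the 7 higher genes remained higher and called. In all, 5 genes of the set were then called higher and 15 lower, beside 23.8% and 25.1% of all genes. The share of all called genes that kept their call is not given here. TPI1 then stood at -0.50, PGK1 at -0.46, LDHA at -0.51, PGAM1 at -0.65 and BSG at -0.47. GAPDH stood at -0.25 (adjusted p = 0.048), LDHB at -0.23 (0.00708) and TIGAR at -0.27 (0.0307). ENO1 ended at 0.03 (0.775), and PFKL, PFKM, PYGL, UGP2, PYGB, GBE1 and G6PC3 were no longer called (adjusted p 0.0622 to 0.519). GYS1 turned to -0.22 (0.0469) and, of the genes not called before, 5 then passed the test. These were SLC2A3, GPI and PFKP, with the values given above, ALDOA at -0.46 (0.0405) and ENO2 at 0.29 (0.0245). PFKFB2, PFKFB3, PGAM1 and SLC16A3 had neighbours with medians of 0.04, 0.14, 0.09 and 0.55, so PFKFB3, PGAM1 and SLC16A3 moved against theirs. SLC16A3 then stood at -1.39. The subtracted value was treated as known, so these p-values leave out its own error.

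**Figure D4:**
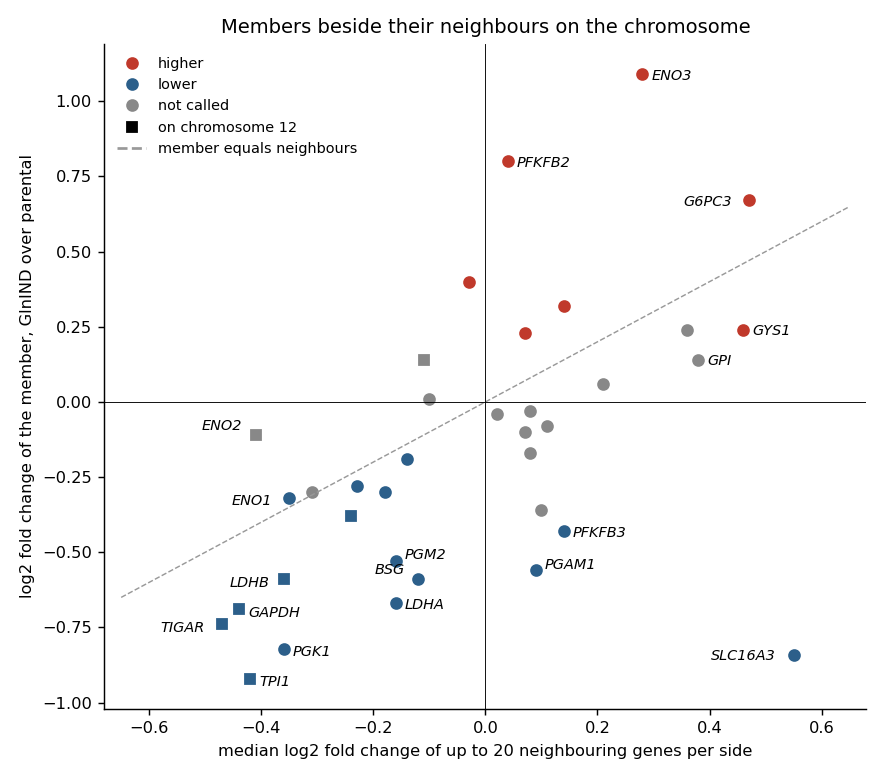
Log2 fold change of each of the 36 genes against the median log2 fold change of up to 20 neighbouring genes on either side, with squares for genes on chromosome 12 and a dashed line where the values are equal. TPI1, GAPDH, LDHB and TIGAR sit low on both axes, while SLC16A3 lies at -0.84 with a neighbour median of 0.55.

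Other genes of the pathway, outside the 36, extended the account of glycogen. Of 19 tested further glycogen genes 9 were higher, 1 lower and 9 not called, with a median log2 fold change of 0.28, beside 28.4% higher and 27.9% lower over all genes. GYG2, a glycogenin that primes new glycogen, had 74, 50 and 67 counts in GlnIND and 8, 2 and 7 in parental libraries, with a fitted log2 fold change of 3.13 with SE 0.39 (edgeR adjusted p = 0.000116). Its level stayed low, at 2.66 CPM in GlnIND and 0.292 CPM in parental cells. GYG1, the more abundant glycogenin gene, stood at 39.0 and 33.3 CPM. Its groups overlapped and it was not called (edgeR adjusted p = 0.0877), except under upper-quartile scaling (0.0281) and scaling by totals (0.0144). PGM2L1, a phosphoglucomutase-like enzyme, rose by 1.06 in log2 units, at 22.4 ± 1.97 CPM in GlnIND and 10.7 ± 1.94 CPM in parental cells (SD, n = 3 each, with edgeR adjusted p = 0.000178). PPP1R3C, which targets protein phosphatase 1 to glycogen and so favours its synthesis, was the gene that fell. It had 2, 4 and 4 counts in GlnIND and 80, 101 and 68 in parental libraries (edgeR adjusted p = 4.71e-06). The counts were 9 higher and 2 lower without parental 1.

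The same shares of all genes, 28.4% higher and 27.9% lower, or 32.3% and 32.9% without parental 1, are the background of every further list. Of 6 tested glucose transporters 2 were higher, 1 lower and 3 not called. SLC2A12 rose to 2.33, 2.21 and 3.19 CPM in GlnIND libraries, against 1.64, 1.49 and 0.936 CPM in parental libraries (edgeR adjusted p = 0.0171), and SLC2A11 rose by 0.69 (edgeR adjusted p = 0.0183). SLC2A13, the proton myo-inositol symporter, fell by 0.65 (edgeR adjusted p = 0.00378), and stood at -0.29 after removal of the GC trend (0.115). The SLC2A12 call was lost without parental 3 or GlnIND 3 (adjusted p 0.0608 and 0.0867) and the SLC2A11 call without parental 2, GlnIND 1 or GlnIND 2 (0.0552 to 0.0764). Of 7 tested isozymes 3 were higher and 2 lower. HKDC1, a hexokinase domain protein, had 3.68, 3.12 and 3.95 CPM in GlnIND libraries, against 1.04, 1.37 and 0.988 CPM in parental libraries, a rise of 1.66 (edgeR adjusted p = 0.000228). GAPDHS, the sperm form of GAPDH, rose by 1.08 and BPGM, which makes 2,3-bisphosphoglycerate, fell by 0.50 (edgeR adjusted p = 0.0042 and 0.00183), and neither was called once the change of neighbouring genes was subtracted (0.55 and 0.06).

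In the monocarboxylate transporter family 2 of 7 tested further genes were higher, 1 lower and 4 not called. SLC16A7, which encodes the high-affinity transporter MCT2, had 54.5, 54.8 and 65.8 CPM in GlnIND libraries 1 to 3, against 114, 90.4 and 82.8 CPM in parental libraries 1 to 3. It fell by 0.71 in log2 units (standard error 0.12, edgeR adjusted p = 0.000875), though not with the GC trend removed (-0.20, adjusted p = 0.192). SLC16A14 and SLC16A6, members that are not classical lactate carriers, rose by 2.90 and 1.27 to 3.69 ± 0.322 and 7.05 ± 1.33 CPM in GlnIND cells (SD, n = 3), against 0.484 ± 0.250 and 2.91 ± 0.542 CPM in parental cells.

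The pentose phosphate pathway, which leaves glycolysis at glucose-6-phosphate, had 1 gene higher, 6 lower and 5 not called of 12 tested, with a median of -0.24, against a background of 28.4% higher and 27.9% lower. DERA, which cleaves deoxyribose phosphate, fell by 0.85 and H6PD, a dehydrogenase of the endoplasmic reticulum, by 0.51 (edgeR adjusted p = 2.53e-05 and 0.00158). Without parental 1, 8 genes of this list were lower, with 32.9% of all genes. Of 5 tested genes of the glycerol phosphate and methylglyoxal branches 2 were higher and 2 lower. HAGH, which hydrolyses the product of glyoxalase 1, and GPD1L rose by 0.71 and 0.63, and GPD2, the mitochondrial glycerol phosphate dehydrogenase, fell by 0.44. GLO1, the gene of glyoxalase 1, fell by 0.39, at 379 CPM in GlnIND and 497.5 CPM in parental cells (edgeR adjusted p = 0.00031). HAGH stood at 27.9 and 17.0 CPM. In gluconeogenesis SLC37A4, which carries glucose-6-phosphate into the endoplasmic reticulum, fell by 1.25 (edgeR adjusted p = 0.000515), or by 0.28 (adjusted p = 0.261) with its neighbours' change subtracted. PCK2, the mitochondrial phosphoenolpyruvate carboxykinase, rose by 0.68 (edgeR adjusted p = 0.0102), a call that was lost without GlnIND 1 (0.0557). With the change of neighbouring genes subtracted, SLC2A13, H6PD, GPD1L and PCK2 were not called.

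Of 18 tested regulators of glucose use 2 were higher, 5 lower and 11 not called, and the share that was lower was close to the 27.9% of all genes. HIF1A, the oxygen-regulated subunit of HIF-1, had 282, 301 and 299.6 CPM in GlnIND libraries 1 to 3, against 487, 366 and 364 CPM in parental libraries 1 to 3. Parental 1 was the highest library and the GlnIND libraries were below all others, with a fitted log2 fold change of -0.46 with SE 0.11 (edgeR adjusted p = 0.00466), -0.32 without parental 1, and -0.09 after removal of the GC trend (adjusted p = 0.48). TXNIP, which restrains glucose uptake and is induced by MondoA, had 83.4, 82.0 and 80.1 CPM in GlnIND libraries, against 112, 121 and 123 CPM in parental libraries, with a fitted log2 fold change of -0.53 with SE 0.067 (edgeR adjusted p = 0.000116). Its relative ARRDC4, also a MondoA target, rose by 0.81 (edgeR adjusted p = 0.00112). EGLN3, a HIF-induced prolyl hydroxylase, and FOXK1, a forkhead factor linked to glycolytic genes, fell by 0.73 and 0.74 (edgeR adjusted p = 0.00821 and 0.000228). MYC averaged 139 ± 7.86 CPM in GlnIND and 152 ± 6.91 CPM in parental cells (SD, n = 3 each) and was not called (edgeR adjusted p = 0.125). It passed the test with the change of neighbouring genes subtracted (-0.46, adjusted p = 0.000492) and after removal of the GC trend (-0.20, 0.0309). Counts of mRNA do not measure the activity of these factors. Without parental 1, 5 regulators were higher and 6 lower.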

How the data were processed

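PolyA RNA of 3 GlnIND and 3 parental libraries was sequenced, and the values deposited by the authors are unnormalised counts of reads for each gene symbol. FastQC, STAR, featureCounts, DESeq and the build hg19 are named per the submitters' processing notes. Tool versions, the annotation, strand use and the treatment of reads with several matches are not given in the sources used here. GENCODE v29 lists pseudogene copies for 12 of the 36 genes (62 for GAPDH, 13 for PGAM1), 7 genes share exon sequence with another row there, and ALDOA overlaps a RefSeq locus with a row of its own, so their counts may be split or lost. The deposited matrix calls replicate 3 of each per-library table replicate 1 and the reverse, with 100% of rows equal, which leaves the groups unchanged. Replicate numbers follow the tables.

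Counts were tested with the quasi-likelihood functions glmQLFit and glmQLFTest of edgeR 4.0.16 under R 4.3.3 (two-sided, TMM factors, filterByExpr with a minimum count of 10 and total of 15, group alone in the design), fitted on 13949 genes, with Benjamini-Hochberg adjustment over all of them. The common biological coefficient of variation was 9.8%. SE values come from the F statistic. Levels per kilobase used merged exon lengths of GENCODE v29, which is not the annotation that was counted. The fit was tested on simulated counts with the same dispersion for every gene and library. That test therefore does not cover the spread of parental 1. Alternatives were RLE, upper-quartile and total scaling, no filter, each library left out, DESeq2 1.42.0, limma-voom (limma 3.58.1), a replicate block and subtraction of the neighbours' change. Subtraction of a loess trend on transcript GC content was added after the data had been seen, and 96% of tested genes had a GC value. All 36 genes are accounted for. From each other list up to 3 called genes were named, by size of log2 fold change, where mean CPM reached 1, with HIF1A, MYC and TXNIP, and 1 gene that the rule names is not reported here. The members and lists were chosen with earlier results of these data known.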

Additional observations from a re-analysis of the deposited data

How the results depend on the processing

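Over 15 alternatives, 444 of 540 values of the 36 genes kept their direction and their side of the threshold, 48 lost a call, 21 gained one and 27 turned direction. No such tally over all genes is given here as a background. The genes called higher numbered 7, and 12 under scaling by library totals, 4 after removal of the GC trend and 3 to 8 when 1 library was left out (8 without parental 1, 4 without parental 2, 5 without parental 3, 5 without GlnIND 1, 3 without GlnIND 2 and 4 without GlnIND 3). Of all genes 28.4% were higher in the reported fit, 38.4% by totals, 30.9% without the GC trend and 22.3% to 32.3% with 1 library left out. The genes called lower numbered 16, and 11 to 22 over the alternatives, 13 to 22 when 1 library was left out, beside 20.1% of all genes by totals, 24.0% without the GC trend and 23.6% to 32.9% with 1 library left out. The median of -0.18 was -0.09 with upper-quartile factors, -0.03 with library totals, and -0.24 to -0.16 when 1 library was left out. The cause was not tested.

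The values that turned direction lay mostly near 0. HK1 stood at -0.01 with RLE factors and with DESeq2, at -0.06 with the GC trend removed and between -0.04 and 0.05 when 1 library was left out. With upper-quartile factors SLC2A1 stood at 0.06, PFKP at 0.01 and PGM1 at 0.05. With library totals SLC2A1 stood at 0.12, HK2 at 0.05, PFKP at 0.07, ENO2 at 0.04, PGM1 at 0.12 and MYC at 0.02. When 1 library was left out SLC2A1 ranged from -0.16 to 0.03, PKM from 0.00 to 0.10 and SLC16A1 from -0.61 to 0.00. With the neighbours' change subtracted GPI stood at -0.24, PFKFB4 at -0.12, ENO1 at 0.03, ENO2 at 0.29, PKM at -0.15, GYS1 at -0.22, FBP1 at 0.00 and BPGM at 0.06. PKM stood at 0.00 with the GC trend removed. Of 390 values of the 26 other genes that the naming rule chose, 371 kept direction and call. Isozyme differences kept their sign in all settings tried.

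Same-numbered libraries of the groups did not deviate together (correlations of -0.0629, 0.0299 and -0.037 for numbers 1, 2 and 3), so the numbers were not taken to pair the samples. With the replicate block 6 genes of the set were higher and 15 lower, beside 26.7% and 25.7% of all genes. GYS1 (adjusted p = 0.0664) and PYGL (0.0564) were then no longer called. Depth limits SLC16A1, with at most 1.61 CPM in any library.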
